A study of Mus musculus with 4 samples.

Results

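Nuclear receptors are transcription factors that most often act after binding a small lipophilic ligand, such as a steroid, a retinoid, thyroid hormone or a fatty acid. Of 43 listed nuclear receptor genes, 39 had a probe set annotated to that gene alone on the Affymetrix 430A array and are described here, among 12393 genes measured in the same way; Nr3c2, Nr1h2, Nr2e1 and Nr2e3 had none and were not analysed here. The 39 genes had 66 probe sets, and 18 genes had more than 1. Each gene is given by its probe set with the highest mean log2 signal.

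Total RNA was measured on 4 arrays, 1 per group, so there were no replicates: isolated seminiferous tubules from XX/Sry and from W/Wv males, then whole testis from XX/Sry and from W/Wv males, all adult. XX/Sry males have XX sex chromosomes and an Sry transgene, which turns an XX embryo into a male; W/Wv males carry 2 mutant alleles of the receptor kinase gene Kit. Both kinds of male are known to lose nearly all germ cells, and the study compared how well their testicular somatic cells support spermatogenesis. Tubules were freed of interstitial cells with collagenase at 5 mg/ml for 40 min and a strainer. The W/Wv males were a bought WB by B6 cross; the strain of the XX/Sry males, the ages beyond adult, the number of animals per array and the promoter of the transgene are not stated in the sources used here, and genotype and strain cannot be told apart.

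In the testis, receptors of this family set the identity of the somatic cells. Nr5a1 (steroidogenic factor 1) drives the genes of steroid synthesis in Leydig cells and acts in Sertoli cells too, and Nr0b1 (DAX1), which lacks the usual DNA-binding domain, binds to Nr5a1 and represses it. Retinoic acid, through the Rar and Rxr receptors, is needed for germ cells to mature, and Nr6a1 (germ cell nuclear factor) is a receptor of germ cells. Rev-erb receptors (Nr1d1, Nr1d2) repress and Ror receptors activate genes of the circadian clock.

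The values are MAS5 signals, an intensity on a linear scale. The 4 arrays matched their genotype labels: Xist, the RNA of X inactivation, had signals of 1002 in XX/Sry and 76.7 in W/Wv tubules and of 3099 in XX/Sry and 131 in W/Wv whole testis. The background bound of an array, the highest signal of 27 control probe sets for bacterial RNA that mouse RNA should not light up, was 61.0 in XX/Sry tubules, 46.1 in W/Wv tubules, 63.9 in XX/Sry whole testis and 76.3 in W/Wv whole testis. The 18 hybridisation spike controls had a median log2 deviation from their mean over the arrays of 0.46 in W/Wv tubules, and of -0.17, -0.18 and -0.09 in XX/Sry tubules, XX/Sry whole testis and W/Wv whole testis.

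By the deposited signals 3 receptor genes differed at least 2-fold the same way between preparations. Nr0b1 and Rxrg were higher and Ppara was lower in tubules, but the whole testis signals of Rxrg lay below the bound, so its 2-fold is not established. No receptor gene did so between genotypes; over all genes 7.05% did so between preparations and 5.20% between genotypes. The 250 bases before a start site of each are shown, from RefSeq on GRCm38.p6, because the counts between preparations rest on these genes. Capitals mark matches, on either strand, to AGGTCA (the core element of nuclear receptor binding sites), AAGGTCA (its extension, which overlaps it), a direct repeat of AGGTCA with 1 base between, the E-box CACGTG, the D-box TTATGNAA and the TATA box TATAAA.
Nr0b1, chrX:86191525-86191774, + strand: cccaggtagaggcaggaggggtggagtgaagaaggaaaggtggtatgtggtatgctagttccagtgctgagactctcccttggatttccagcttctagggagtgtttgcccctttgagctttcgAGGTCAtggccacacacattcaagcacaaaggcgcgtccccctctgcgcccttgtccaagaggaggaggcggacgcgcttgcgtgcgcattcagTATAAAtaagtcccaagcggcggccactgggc
Rxrg, chr1:167618015-167618264, + strand, the second of 2 start sites: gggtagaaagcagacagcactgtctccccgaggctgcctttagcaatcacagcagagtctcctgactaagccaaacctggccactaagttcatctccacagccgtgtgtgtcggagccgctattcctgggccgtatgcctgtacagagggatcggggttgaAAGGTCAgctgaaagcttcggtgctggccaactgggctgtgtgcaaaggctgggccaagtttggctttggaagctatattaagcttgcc
Ppara, chr15:85735526-85735775, + strand: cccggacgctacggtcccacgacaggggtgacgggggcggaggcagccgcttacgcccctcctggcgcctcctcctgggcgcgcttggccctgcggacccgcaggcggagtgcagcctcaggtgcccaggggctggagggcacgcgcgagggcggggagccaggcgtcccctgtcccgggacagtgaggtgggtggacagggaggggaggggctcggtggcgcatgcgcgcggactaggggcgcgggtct

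The Nr0b1 window held AGGTCA starting 126 bases and TATAAA starting 32 bases before the start site. The Rxrg window shown held AAGGTCA starting 89 bases before it and was chosen for that match; the window of the other Rxrg start site, which is not shown, held none of the 6 motifs, nor did the Ppara window. AGGTCA was present in 14.0% of all 32851 promoter windows of this length and in 11 of the 61 windows of the listed receptors (18.0%, over 40 genes with a window), and TATAAA in 12.4% of all and 7 of 61 (11.5%). AAGGTCA was in 4.08% of all and 3 of 61, the E-box in 6.02% and 4 of 61, the D-box in 3.07% and 1 of 61, and the direct repeat in 0.0335% and 0 of 61. A match is a run of letters, not a measured binding site.

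The family spanned the range from background to strong signals. Of the 39 genes, 21 lay above the bound on all 4 arrays, against 65.1% of all genes, 10 lay above it on 1 to 3 arrays, and 8 lay at or below it on every array, against 12.6% of all genes. Nr0b1 reached 4772 in XX/Sry tubules, and Nr5a1, Nr1d2 and Rxrb had signals between 949 and 1480 on every array. Signals of different probe sets are not amounts of RNA and set no order between genes. The 8 genes at or below the bound throughout were Rorb, Esr1, Esr2, Pgr, Ppard, Pparg, Nr1i3 and Nr4a3. No fold is given for them.

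**Figure D1:**
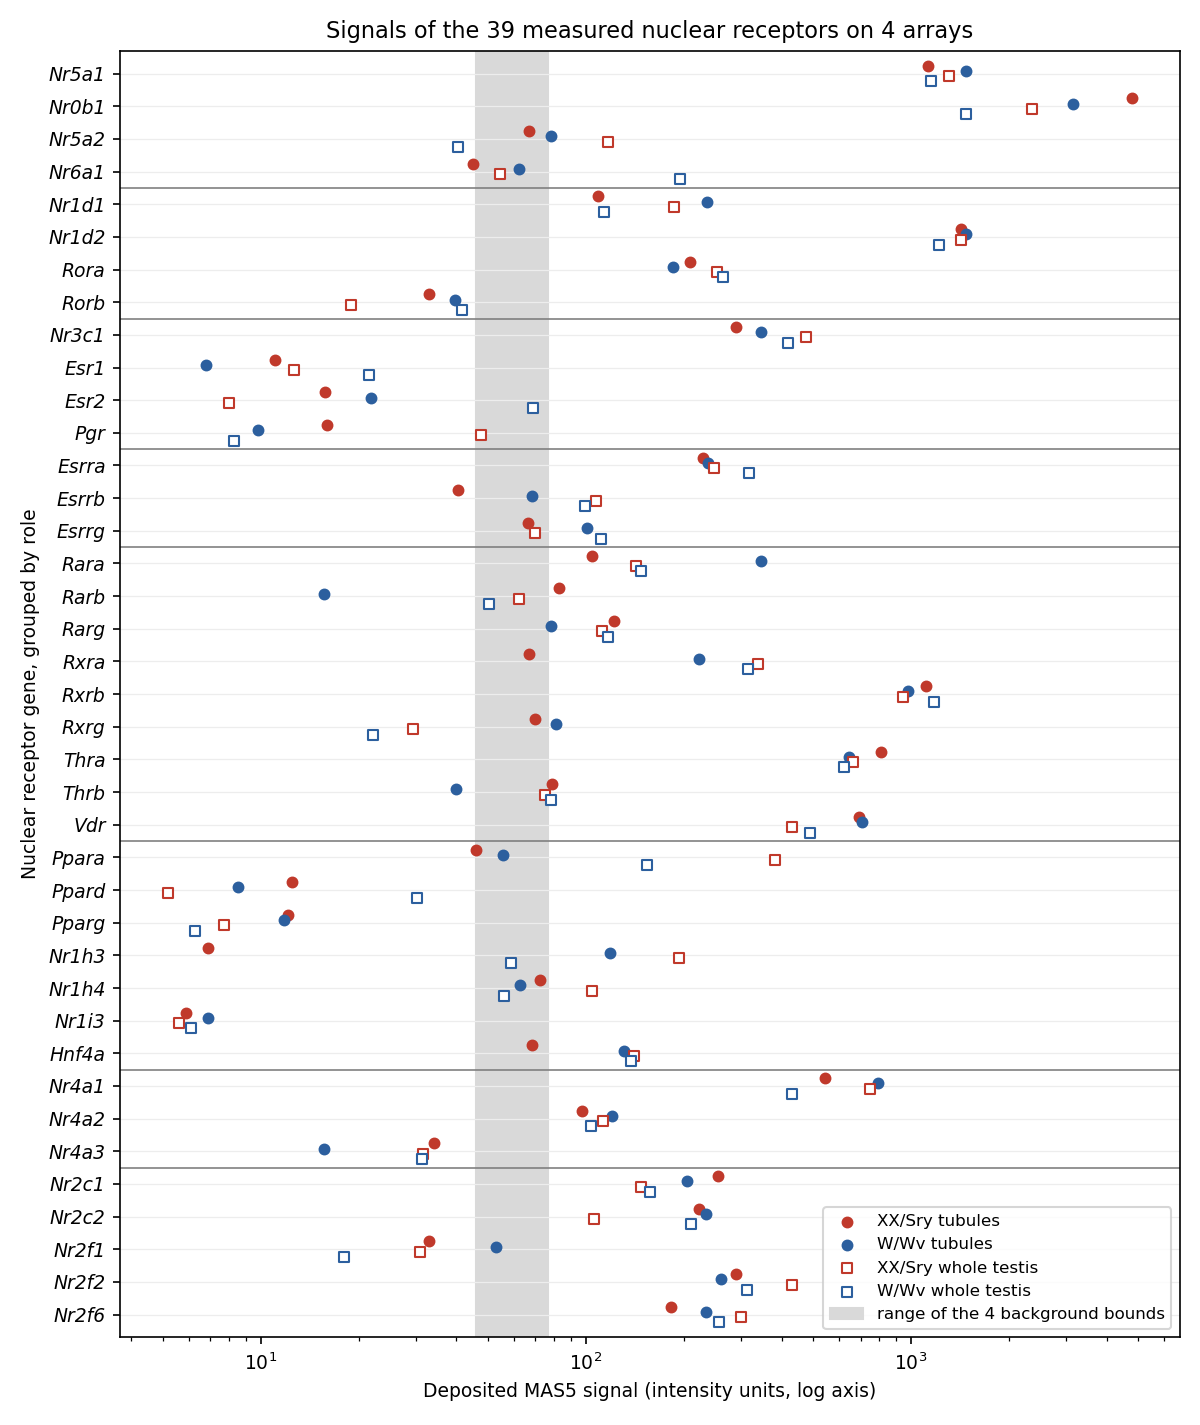
Deposited MAS5 signals (log axis) of the 39 measured nuclear receptor genes, 1 probe set each, with filled circles for tubules, open squares for whole testis, red for XX/Sry and blue for W/Wv; each point is 1 array. The shaded band spans the background bounds, 46.1 to 76.3; horizontal lines separate the role groups, and Nr0b1 has the farthest point to the right, 4772 in XX/Sry tubules.

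The first comparison set XX/Sry against W/Wv within each preparation. No receptor gene differed 2-fold the same way in tubules and in whole testis: 0 of 39 were higher, against 1.98% of all 12393 genes, and 0 were lower, against 3.22%. The 2-fold rule in both preparations is the one the study states. In tubules 6 of 39 genes were at least 2-fold different in either direction, against 21.6% of all genes. In whole testis it was 8 of 39, against 21.5%. These counts and shares use the deposited signals without regard to the bound. They include genes at or below it throughout: Nr4a3 in tubules, and Rorb, Esr2, Pgr and Ppard in whole testis. The ratio had the same sign in both preparations in 17 of 39 genes, against 54.3% of all genes. The median log2 ratio over the 39 was -0.22 in tubules and 0.10 in whole testis, and that over all genes -0.00 and -0.10.

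The only error the design offers is the disagreement between the 2 preparations, which an additive fit of genotype and preparation takes as noise (limma, moderated test over 22626 probe sets, 1 residual degree of freedom). By it 0 of 39 genes passed an adjusted p of 0.05 for genotype, against 0.150% of all probe sets, and 0 for preparation, against 1.22%. At an unadjusted p under 0.05, 1 gene passed for genotype (9.35% of all genes) and 3 for preparation (14.8%). The standard error of a log2 difference ranged from 0.24 for Nr0b1 to 1.32 for Nr1i3. The genotype ratio in tubules and that in whole testis lay a median of 0.45 apart on the log2 scale over the 21 genes above the bound on all arrays, and 1.42 over the other 18; over all genes these were 0.44 and 1.38.

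**Figure D2:**
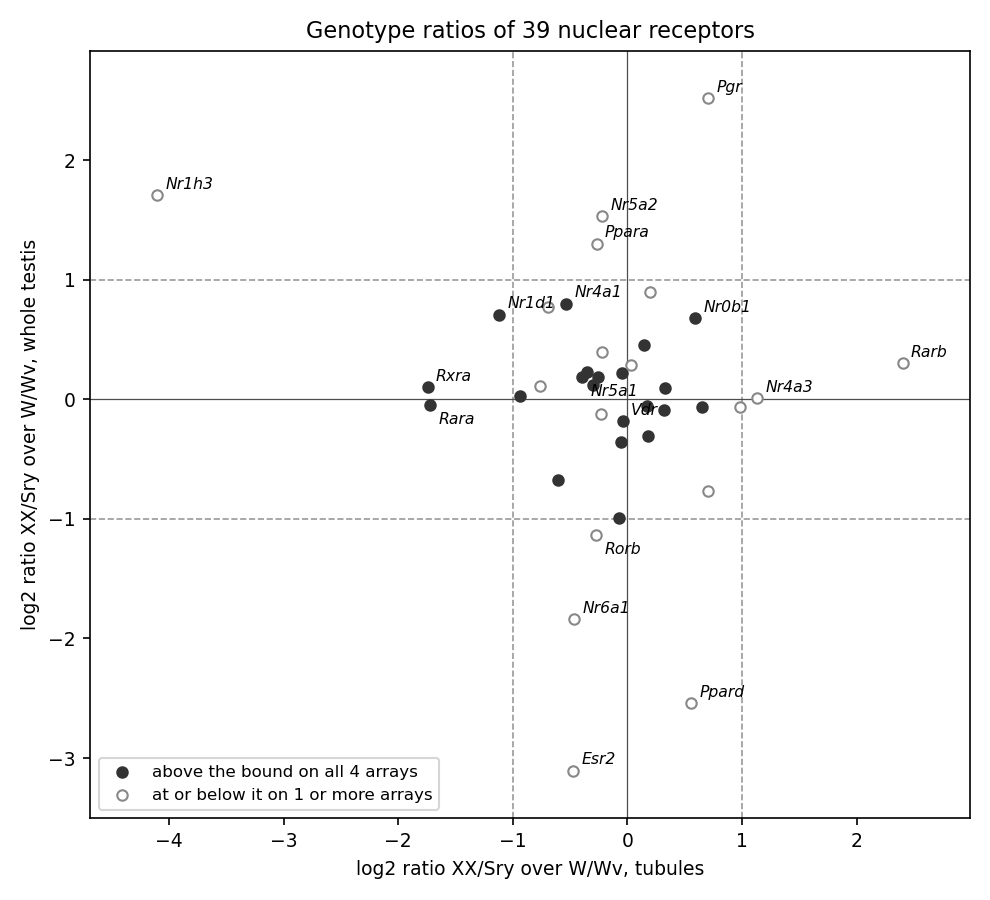
log2 ratio of XX/Sry over W/Wv in tubules (horizontal) against that in whole testis (vertical) for the 39 receptor genes, 1 point per gene; filled points lay above the background bound on all 4 arrays. Dashed lines mark 2-fold; no point lies beyond them in the upper right or lower left corner, and Nr1h3 lies beyond both in opposite directions.

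Among the gonadal orphan receptors, Nr0b1 was higher in XX/Sry in both preparations, though under 2-fold. Its signals were 4772 in XX/Sry and 3159 in W/Wv tubules, and in whole testis 2365 in XX/Sry and 1477 in W/Wv. Both XX/Sry arrays thus stood above the W/Wv array of the same preparation, 1.51-fold in tubules and 1.60-fold in whole testis. The fitted log2 difference was 0.64 ± 0.24 (SE), with an unadjusted p of 0.0231 and an adjusted p of 0.474 in limma, the lowest adjusted p of the 39 for genotype.

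Nr0b1 was the only one of the 39 on chromosome X, of which XX/Sry males have 2 copies and W/Wv males 1. The median log2 ratio of the 262 genes on chromosome X above the bound on all arrays was 0.19 in tubules and 0.09 in whole testis. A ratio in both preparations at least as high as the lower of the Nr0b1 ratios was found in 21 of these 262 genes (8.02%), and in 282 of all 8065 genes above the bound on all arrays (3.50%). The part of gene copy number in the Nr0b1 ratio was not tested.

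Nr5a1 differed little by genotype. Its signals were 1128 in XX/Sry and 1480 in W/Wv tubules, with 1306 in XX/Sry and 1150.0 in W/Wv whole testis. The ratios had opposite signs, 1.31-fold lower in XX/Sry tubules and 1.14-fold higher in XX/Sry whole testis, and the fitted difference was -0.10 ± 0.26. A dim further probe set, above the bound only in W/Wv tubules, had 33.4 in XX/Sry and 60.3 in W/Wv tubules, and in whole testis 10.2 in XX/Sry and 59.7 in W/Wv. Averaging both would turn the whole testis ratio to -1.18 on the log2 scale.

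Nr6a1 had signals of 45.0 in XX/Sry and 62.1 in W/Wv tubules, and of 54.3 in XX/Sry and 194 in W/Wv whole testis. W/Wv whole testis was the high array. The XX/Sry signal was lower, by at least 1.02-fold in tubules and at least 2.55-fold in whole testis. Meiotic and haploid germ cell markers had the same high array: 12 of 15 lay above the bound in W/Wv whole testis and 3 to 5 on the other arrays. Their summed signal was 745 in XX/Sry tubules, 467 in W/Wv tubules, 828 in XX/Sry whole testis and 5086 in W/Wv whole testis. In tubules these markers thus had the higher sum in XX/Sry, opposite to Nr6a1. Their part in the Nr6a1 result was not tested, and in RNA of whole tissue fewer cells of a type and less RNA per cell cannot be told apart. A further Nr6a1 probe set ran the other way, with 74.6 in XX/Sry and 67.1 in W/Wv tubules, and in whole testis 69.4 in XX/Sry and 13.4 in W/Wv.

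Nr5a2 (LRH-1, a close relative of Nr5a1) had 67.0 in XX/Sry and 78.1 in W/Wv tubules, and in whole testis 117 in XX/Sry and 40.4 in W/Wv. XX/Sry was 1.17-fold lower in tubules and at least 1.53-fold higher in whole testis, so the 2 ratios of this probe set had opposite signs. By a further Nr5a2 probe set XX/Sry was higher in both, at least 1.34-fold in tubules and at least 1.04-fold in whole testis. The remaining Nr5a2 probe sets gave no genotype fold against the bound.

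The clock receptor Nr1d1 also went opposite ways. It had 109 in XX/Sry and 236 in W/Wv tubules, 2.17-fold lower in XX/Sry, and 186.5 in XX/Sry and 114 in W/Wv whole testis, 1.64-fold higher in XX/Sry. Its relative Nr1d2 stayed within 1.20-fold in every pair, with 1423 in XX/Sry and 1474 in W/Wv tubules, and in whole testis 1429 in XX/Sry and 1223 in W/Wv. A further, dimmer Nr1d2 probe set did not. It had 135 in XX/Sry and 96.0 in W/Wv tubules, and in whole testis, below the bound, 31.4 in XX/Sry and 70.5 in W/Wv. Rora, which activates the genes that these receptors repress, had 209 in XX/Sry and 186 in W/Wv tubules, and in whole testis 254 in XX/Sry and 263 in W/Wv. None of these 3 genes passed in the fit (adjusted p of 0.961, 0.963 and 0.987 in limma).

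The other clock genes were set beside them. Of 16 measured, 0 passed 2-fold in both preparations between genotypes, and their median log2 ratio was -0.15 in tubules and -0.31 in whole testis. The ratio was above 0 in 6 of them in tubules and in 3 in whole testis. The hour of collection is not stated in the sources used here. On chromosome 11, Nr1d1 and Thra overlap by 1075 bases in the RefSeq annotation. Thra, a thyroid hormone receptor, had 811 in XX/Sry and 646 in W/Wv tubules, with 665 in XX/Sry and 621 in W/Wv whole testis, within 1.26-fold in every pair.

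Among the steroid hormone receptors, only Nr3c1, the glucocorticoid receptor, was above the bound. It had 289 in XX/Sry and 346 in W/Wv tubules, and in whole testis 476 in XX/Sry and 418 in W/Wv, differences of 1.20-fold and 1.14-fold in opposite directions. Its genotype difference in the fit was -0.04 ± 0.32. The estrogen receptor gene Esr1 had 11.1 in XX/Sry and 6.8 in W/Wv tubules, with 12.7 in XX/Sry and 21.6 in W/Wv whole testis. These and the signals of Esr2 (at most 68.9) and the progesterone receptor gene Pgr (at most 47.7) all lay at or below the bound.

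Of 14 measured glucocorticoid target genes, 0 passed between genotypes, and the ratio was above 0 in 2 in tubules and in 4 in whole testis. Their median log2 ratio was -0.35 in tubules and -0.46 in whole testis. Of the estrogen metabolism and response genes, 1 of 9 passed: Sult1e1, the estrogen sulfotransferase, had 1192 in XX/Sry and 70.5 in W/Wv tubules, and in whole testis 2151 in XX/Sry and 426 in W/Wv. Sult1e1 is also on the Leydig cell marker list, of which 2 of 10 genes were higher in XX/Sry in both preparations, with medians of 0.90 in tubules and 0.58 in whole testis; their part was not tested.

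The estrogen-related receptors, orphan regulators of mitochondrial genes, did not pass. Esrrg had 66.2 in XX/Sry and 101 in W/Wv tubules, with 69.7 in XX/Sry and 111 in W/Wv whole testis. It was lower in XX/Sry in both preparations, 1.52-fold and 1.59-fold, with a fitted difference of -0.64 ± 0.62 and an adjusted p of 0.853 in limma. Esrra had 229 in XX/Sry and 238 in W/Wv tubules, and in whole testis 248 in XX/Sry and 318 in W/Wv. Esrrb lay below the bound in XX/Sry tubules (40.3) and had 68.3 in W/Wv tubules, 107.5 in XX/Sry whole testis and 99.3 in W/Wv whole testis.

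In the retinoid group, Rara and Rxra were over 2-fold apart between genotypes in tubules and within 1.07-fold in whole testis. Rara had 105 in XX/Sry and 345 in W/Wv tubules, 3.30-fold lower in XX/Sry, and 143 in XX/Sry and 148 in W/Wv whole testis. W/Wv tubules was the high array for Rara, which in the testis is a receptor of Sertoli and germ cells. Rxra, a shared partner of many receptors, had 66.7 in XX/Sry and 223 in W/Wv tubules, 3.35-fold lower in XX/Sry, and 339 in XX/Sry and 316 in W/Wv whole testis. Here XX/Sry tubules was the low array.

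Neither Rara nor Rxra passed in the fit (adjusted p of 0.696 and 0.708 in limma), and whether the ratios differ between preparations was not tested. The W/Wv tubules array, the high one for Rara, also had the brighter spike controls given above, and their part was not tested. A further Rxra probe set ran the other way, with 110 in XX/Sry and 26.8 in W/Wv tubules, and in whole testis 77.2 in XX/Sry and 158 in W/Wv.

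Rarb had 82.5 in XX/Sry and 15.6 in W/Wv tubules, at least 1.35-fold higher in XX/Sry, and 62.2 in XX/Sry and 50.5 in W/Wv whole testis, both below the bound. Rarg had 122 in XX/Sry and 78.1 in W/Wv tubules, 1.57-fold higher in XX/Sry, and 112 in XX/Sry and 117 in W/Wv whole testis. Rxrb, the brightest Rxr probe set, had 1110.5 in XX/Sry and 982 in W/Wv tubules, and in whole testis 948.5 in XX/Sry and 1175 in W/Wv, within 1.24-fold in every pair. The thyroid hormone receptor gene Thrb had 78.6 in XX/Sry and 39.8 in W/Wv tubules, at least 1.29-fold higher in XX/Sry, and 74.7 in XX/Sry and 78.0 in W/Wv whole testis.

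Of 15 genes of retinoic acid synthesis, binding and response, 1 was higher and 2 were lower in XX/Sry in both preparations. Rdh11, a retinal reductase, was 2.66-fold higher in XX/Sry tubules and 2.16-fold higher in XX/Sry whole testis. Crabp1, a retinoic acid-binding protein, was lower, at least 1.54-fold in tubules and at least 2.24-fold in whole testis, and Stra8, which retinoic acid induces in germ cells, had 7.7 in XX/Sry and 18.2 in W/Wv tubules, with 56.5 in XX/Sry and 352 in W/Wv whole testis. Against the bound, 2-fold in both preparations was not established for Crabp1 or Stra8. Markers of spermatogonia and early germ cells, a list that holds Stra8 itself, were set beside it. Of 11 measured, 6 lay above the bound in XX/Sry tubules, 8 in W/Wv tubules, 4 in XX/Sry whole testis and 11 in W/Wv whole testis. Their summed signal was 1460 in XX/Sry tubules, 1285 in W/Wv tubules, 1838 in XX/Sry whole testis and 3368 in W/Wv whole testis. The sum thus went with Stra8 in whole testis and the other way in tubules, where Kit alone had 569 in XX/Sry and 139 in W/Wv. The median log2 ratio of these markers was -0.24 in tubules and -2.64 in whole testis. In both preparations 4 were lower and 1 (Kit) higher in XX/Sry, and their part was not tested. The retinoic acid list median was -0.05 in tubules and -0.19 in whole testis.

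Of the lipid sensors, Nr1h3 and Ppara differed between genotypes in whole testis. Nr1h3 (LXRα), a sensor of oxysterols, had 6.9 in XX/Sry and 118 in W/Wv tubules, and in whole testis 193 in XX/Sry and 58.9 in W/Wv. It was above the bound only in W/Wv tubules and XX/Sry whole testis. XX/Sry was thus lower in tubules, at least 1.94-fold, and higher in whole testis, at least 2.53-fold. It was the only one of the 39 genes at least 2-fold different in opposite directions by the deposited signals, against 3.78% of all genes.

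Ppara, a receptor for fatty acids, had 46.1 in XX/Sry and 55.5 in W/Wv tubules, with 381 in XX/Sry and 155 in W/Wv whole testis, 2.47-fold higher in XX/Sry whole testis. Nr1h4, the bile acid receptor FXR, had 72.2 in XX/Sry and 62.8 in W/Wv tubules, and in whole testis 104.5 in XX/Sry and 56.1 in W/Wv, at least 1.37-fold higher in XX/Sry whole testis. Hnf4a, a receptor of liver, kidney and gut, had 68.5 in XX/Sry and 131 in W/Wv tubules, 1.91-fold lower in XX/Sry, and 141 in XX/Sry and 138 in W/Wv whole testis. None of its further probe sets was above the bound on all arrays. Pparg, the adipocyte receptor, had at most 12.1 on any array.

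Among target genes of the lipid sensors, 1 of 12 for the LXR receptors and 1 of 14 for the PPAR receptors passed between genotypes, both higher in XX/Sry. Cd36, a fatty acid transporter, had 1165 in XX/Sry and 391.7 in W/Wv tubules, 2.97-fold higher in XX/Sry, and 4735 in XX/Sry and 1625.5 in W/Wv whole testis, 2.91-fold higher. Scd1, a fatty acid desaturase, was 2.72-fold and 2.22-fold higher. The LXR list had medians of 0.23 in tubules and 0.12 in whole testis, and the PPAR list -0.05 and 0.03.

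Nr4a1 (Nur77), an immediate early gene and an activator of steroid synthesis genes in Leydig cells, had 546 in XX/Sry and 790 in W/Wv tubules, with 751 in XX/Sry and 431 in W/Wv whole testis. It was 1.45-fold lower in XX/Sry tubules and 1.74-fold higher in XX/Sry whole testis. Nr4a2 (Nurr1) lay between 97.3 and 120.0 on the 4 arrays.

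Of the remaining orphan receptors, Nr2c2 (TR4) had 223 in XX/Sry and 234 in W/Wv tubules, and in whole testis 106 in XX/Sry and 210 in W/Wv, so XX/Sry was 1.05-fold lower in tubules and 1.99-fold lower in whole testis. Its other probe sets did not show the same: the one above the bound on all arrays had XX/Sry signals 1.02-fold higher in tubules and 1.15-fold lower in whole testis, and the mean over the Nr2c2 probe sets gave a whole testis log2 ratio of 0.22. Nr2c1 (TR2) had 255 in XX/Sry and 204 in W/Wv tubules, with 148 in XX/Sry and 157 in W/Wv whole testis. By a further Nr2c1 probe set XX/Sry was 1.53-fold lower in tubules and at least 1.55-fold higher in whole testis. Nr2f2 (COUP-TFII), a receptor of Leydig and other interstitial cells, had 289 in XX/Sry and 261 in W/Wv tubules, and in whole testis 431 in XX/Sry and 314 in W/Wv. A further Nr2f2 probe set, above the bound on all arrays, was 1.54-fold lower in XX/Sry tubules and 2.16-fold higher in XX/Sry whole testis. Another, also above the bound on all arrays, was 1.80-fold lower in XX/Sry tubules and 1.02-fold lower in XX/Sry whole testis. Nr2c2, Nr2c1 and Nr2f2, each by the probe set with the highest mean, had fitted genotype differences of -0.53 ± 0.45, 0.12 ± 0.43 and 0.30 ± 0.34. Nr2f6 had 183 in XX/Sry and 234 in W/Wv tubules, with 300.0 in XX/Sry and 256 in W/Wv whole testis, and Nr2f1 (COUP-TFI) lay above the bound only in W/Wv tubules (53.1), with 32.9 in XX/Sry tubules, 31.0 in XX/Sry whole testis and 18.1 in W/Wv whole testis.

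The coregulators and chaperones through which the receptors act did not pass between genotypes in any of 22 measured genes, with medians of -0.15 in tubules and -0.12 in whole testis. The ratio was above 0 in 9 of 22 in each preparation.

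The second comparison set isolated tubules against the whole testis of the same genotype, so that the isolation steps and the removal of cells cannot be told apart. By the deposited signals 2 of 39 genes, Nr0b1 and Rxrg, were at least 2-fold higher in tubules in both genotypes, against 1.32% of all genes, and 1, Ppara, was lower, against 5.74%. At least 2-fold in either direction were 10 of 39 genes in XX/Sry, against 23.3% of all genes, and 13 of 39 in W/Wv, against 26.0%. These too disregard the bound. They include genes at or below it throughout: Pgr and Ppard in XX/Sry, and Esr1, Esr2, Ppard and Nr4a3 in W/Wv. The sign was the same in both genotypes in 21 of 39, against 59.35% of all genes. The median log2 ratio was -0.11 in XX/Sry and -0.07 in W/Wv, and over all genes -0.02 and -0.15.

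**Figure D3:**
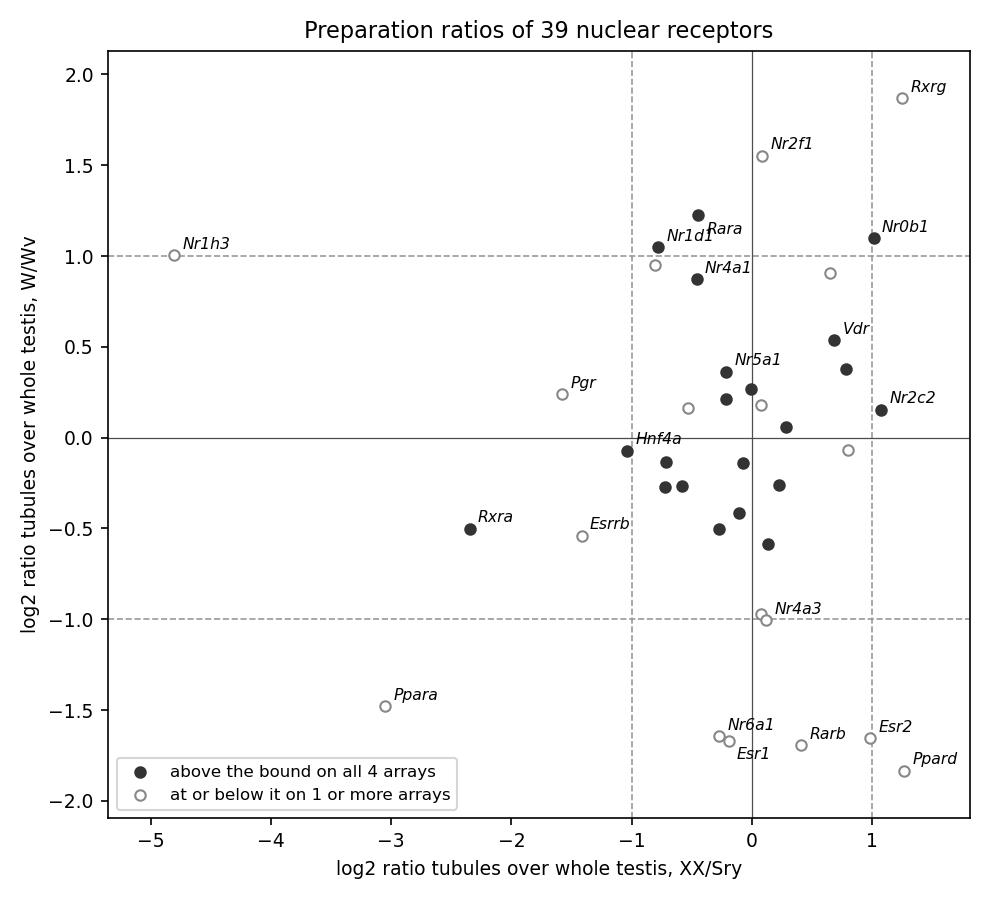
log2 ratio of tubules over whole testis in XX/Sry (horizontal) against that in W/Wv (vertical) for the 39 receptor genes, 1 point per gene; filled points lay above the background bound on all 4 arrays. Dashed lines mark 2-fold; Nr0b1 and Rxrg lie beyond both lines in the upper right, Ppara in the lower left, and Nr1h3 beyond both in opposite directions.

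Nr0b1 was 2.02-fold higher in XX/Sry tubules and 2.14-fold higher in W/Wv tubules than in whole testis of the same genotype. All tubule signals (4772 in XX/Sry, 3159 in W/Wv) stood above all whole testis signals (2365 in XX/Sry, 1477 in W/Wv). The fitted log2 difference was 1.05 ± 0.24, with an unadjusted p of 0.0011 and an adjusted p of 0.0685 in limma, the lowest of the 39. The ratios stood close to the threshold: after quantile normalisation the XX/Sry ratio was 0.99 on the log2 scale.

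Sertoli cell markers moved with Nr0b1. Of 18 measured, 17 were higher in tubules in XX/Sry and 15 in W/Wv, 1 (Gata6) passed 2-fold in both, and the median log2 ratios were 0.41 and 0.56. Their summed signal was 108063 in XX/Sry and 124900 in W/Wv tubules, and in whole testis 89050 in XX/Sry and 91652 in W/Wv. All 18 lay above the bound in the tubules of each genotype, and 17 in the whole testis of each. This was not particular to Sertoli cell markers. Endothelial markers had medians of 0.45 in XX/Sry and 0.42 in W/Wv, with 8 and 9 of 12 higher in tubules. Peritubular myoid and smooth muscle cell markers had medians of 0.20 and 0.42, with 7 and 8 of 10 higher. The part of any of these cell types in the Nr0b1 result was not tested.

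Ppara was lower in tubules than in whole testis, at least 5.97-fold in XX/Sry and 2.79-fold in W/Wv. Both tubule signals (46.1 in XX/Sry and 55.5 in W/Wv) lay below both whole testis signals (381 in XX/Sry and 155 in W/Wv). The fitted log2 difference was -2.26 ± 0.59, with an adjusted p of 0.109 in limma.

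Leydig cell and macrophage markers, of cells between the tubules, moved with Ppara. Of 10 Leydig cell markers 7 were at least 2-fold lower in tubules in both genotypes, with a summed signal of 39595 in XX/Sry and 20628 in W/Wv tubules, and in whole testis 84358 in XX/Sry and 60738 in W/Wv. Of 15 macrophage markers 12 were lower, with sums of 4640 in XX/Sry and 6139 in W/Wv tubules, and in whole testis 19388 in XX/Sry and 15743 in W/Wv. Endothelial markers went the other way, with median log2 ratios of 0.45 in XX/Sry and 0.42 in W/Wv. The part of any of these cell types in the Ppara result was not tested. Of the 14 PPAR target genes 3 were lower in tubules in both genotypes and 0 higher, among them Cd36 (4.06-fold in XX/Sry, 4.15-fold in W/Wv) and Acadm, a fatty acid oxidation enzyme (2.16-fold and 2.07-fold).

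Rxrg had 69.6 in XX/Sry and 81.2 in W/Wv tubules, with 29.3 in XX/Sry and 22.2 in W/Wv whole testis. It cleared the bound only in tubules. Against the bound it was at least 1.09-fold higher in XX/Sry tubules and at least 1.06-fold higher in W/Wv tubules, so 2-fold in both was not established.

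Vdr, the vitamin D receptor, was higher in tubules in both genotypes, under 2-fold. It had 690 in XX/Sry and 709 in W/Wv tubules, and in whole testis 430 in XX/Sry and 488 in W/Wv, ratios of 1.61-fold and 1.45-fold. Its genotype ratios were 1.03-fold and 1.14-fold, and its fitted preparation difference was 0.61 ± 0.28 (adjusted p = 0.359 in limma). A further Vdr probe set had 412 in XX/Sry and 422 in W/Wv tubules, with 337 in XX/Sry and 227.5 in W/Wv whole testis, higher in tubules in both genotypes too.

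Rxra was lower in tubules in both genotypes, 5.09-fold in XX/Sry and 1.41-fold in W/Wv, with a fitted difference of -1.42 ± 0.49, an unadjusted p of 0.0150 and an adjusted p of 0.225 in limma. The further Rxra probe set was 1.43-fold higher in XX/Sry tubules by its signals, so the probe sets disagreed there. Nr2c2 was 2.11-fold higher in XX/Sry tubules and 1.11-fold higher in W/Wv tubules. Nr3c1 was 1.65-fold and 1.21-fold lower in tubules, and Nr2f2 1.49-fold and 1.20-fold lower; neither passed. Some further probe sets above the bound on all arrays went other ways. One of Nr3c1 was 1.07-fold higher in XX/Sry tubules and 1.32-fold higher in W/Wv tubules. One of Nr2f2 was 1.61-fold lower in XX/Sry tubules and 2.07-fold higher in W/Wv tubules. The other further Nr2f2 probe set was lower in tubules in both genotypes, 2.15-fold in XX/Sry and 1.21-fold in W/Wv.

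Nr5a1 did not pass between preparations, while most of the measured steroid synthesis genes that it is known to activate did. Nr5a1 was 1.16-fold lower in XX/Sry tubules and 1.29-fold higher in W/Wv tubules than in whole testis, with a fitted difference of 0.08 ± 0.26. Of 9 measured target genes in steroid synthesis and gonadal function, 6 were at least 2-fold lower in tubules in both genotypes and 0 higher, with median log2 ratios of -1.10 in XX/Sry and -1.83 in W/Wv. Cyp11a1, the enzyme of the first step of steroid synthesis, was 5.87-fold lower in XX/Sry tubules and 5.08-fold lower in W/Wv tubules. Hsd17b3 and Hsd3b1, later enzymes of testosterone synthesis, were 3.42-fold and 3.42-fold lower in XX/Sry tubules and 5.35-fold and 5.27-fold lower in W/Wv tubules, and Fdx1 (adrenodoxin) was 2.86-fold and 4.39-fold lower. The 3 that did not pass were Scarb1, the lipoprotein receptor (1.19-fold and 1.68-fold higher), Inha, a Sertoli cell hormone subunit (1.10-fold and 1.34-fold higher), and Amh, below the bound in whole testis. The Leydig cell sums given above were lower in tubules, as were the 6 targets that passed, while the Sertoli cell sums were higher. Scarb1, on the Leydig cell list, went against the Leydig cell sums. All of the 9 targets except Inha are on the marker list of one of these cell types, and the part of either cell type was not tested. Between genotypes 1 of the 9 passed: Hsd17b3 was 3.16-fold higher in XX/Sry tubules and 2.02-fold higher in XX/Sry whole testis.

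**Figure D4:**
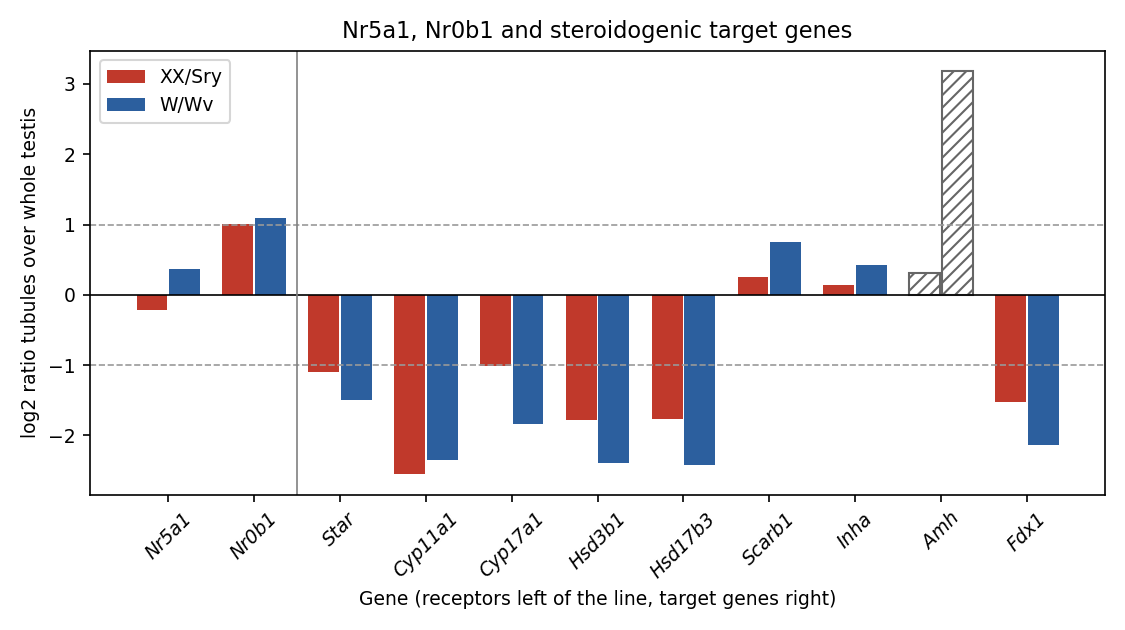
log2 ratio of tubules over whole testis in XX/Sry (red) and W/Wv (blue) for Nr5a1, Nr0b1 and 9 target genes of Nr5a1; each bar is a ratio of single arrays, and dashed lines mark 2-fold. Nr0b1 stands above and 6 targets stand below 2-fold in both genotypes, Nr5a1 lies within 1.29-fold, and the hatched bars of Amh rest on whole testis signals below the background bound.

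Nr4a1 was 1.38-fold lower in XX/Sry tubules and 1.83-fold higher in W/Wv tubules. Immediate early genes, which respond quickly to stimulation of a cell, were set beside it. Of 20 measured, 3 passed in both genotypes, all higher in tubules, and Fos was 9.79-fold higher in XX/Sry tubules and 18.6-fold higher in W/Wv tubules. Egr1 was 3.80-fold and 2.12-fold higher. The median log2 ratio of the list was 0.45 in XX/Sry and 0.72 in W/Wv.

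Rara and Nr1d1 were also higher in tubules only in W/Wv by the signals, 2.34-fold and 2.07-fold, and 1.36-fold and 1.72-fold lower in XX/Sry tubules. With Nr4a1, these 3 genes had their highest signal in W/Wv tubules. This was not particular to them. Nr5a1, Nr1d2, Vdr, Nr2c2, Nr4a2, Rxrg, Nr2f1 and Nr1i3 also had their highest signal in W/Wv tubules. Some of these peaks were slight. Nr1d2 had 1474 there against 1429 in XX/Sry whole testis, and Vdr had 709 against 690 in XX/Sry tubules. Nr1i3 lay below the bound throughout, at most 6.9, so its highest array carries no information. The share of all genes that peak on this array was not counted. For Rara, Nr1d1 and Nr4a1 the difference between genotypes was not tested, nor was the part of the brighter spike controls on the W/Wv tubules array.

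Within 1.5-fold in all 4 pairs lay 8 of the 21 genes above the bound on every array (38.1%, against 33.5% of all genes so measured): Nr5a1, Nr1d2, Rora, Esrra, Rxrb, Thra, Nr4a2 and Nr2f2. This holds for 1 probe set a gene. The further Nr2f2 probe sets each went past 2-fold in at least 1 pair, as given above. A further Rora probe set had lower XX/Sry signals, by at least 1.23-fold in tubules and 1.88-fold in whole testis. A further Nr1d2 probe set was higher in tubules than in whole testis, by at least 2.11-fold in XX/Sry and at least 1.26-fold in W/Wv. The genotype ratios of 4 of the 39 differed at least 4-fold between tubules and whole testis, against 12.7% of all genes. These were Nr1h3, Rarb, Esr2 and Ppard, and none of them was above the bound on all 4 arrays.

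Among the 10 genes above the bound on 1 to 3 arrays, several differed between preparations in 1 genotype. Tubules had less Nr1h3 signal than whole testis in XX/Sry, at least 3.02-fold, and more in W/Wv, at least 1.55-fold. It and Ppard, below the bound throughout, were the 2 of 39 genes 2-fold different in opposite directions by the signals, against 3.59% of all genes. Nr6a1 was 3.13-fold lower in W/Wv tubules, and had no fold in XX/Sry. Of the 12 LXR target genes 3 were lower in tubules in both genotypes, Scd1, Apoe and Abcg5, and Apoe, a lipid carrier that macrophages also express, was 10.3-fold lower in XX/Sry tubules and 2.86-fold lower in W/Wv tubules. The macrophage and Leydig cell sums given above were also lower in tubules, and the part of either in the Apoe result was not tested. Among the other marker lists, 0 of 10 peritubular myoid and smooth muscle cell markers passed between preparations, 2 of 12 endothelial markers were higher in tubules and 1 of 8 adipocyte markers was lower.

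Hnf4a, above the bound on all arrays by the probe set with the highest mean, was 2.05-fold lower in XX/Sry tubules and 1.05-fold lower in W/Wv tubules. Of its 4 probe sets no other was above the bound on all arrays. A further one cleared it only in XX/Sry whole testis (102), and the rest lay below it throughout. Nr2f6 was 1.64-fold and 1.10-fold lower, and Nr2c1 1.72-fold and 1.30-fold higher in tubules. A further Nr2c1 probe set was 1.33-fold lower in XX/Sry tubules and at least 1.78-fold higher in W/Wv tubules. Tsc22d3 (GILZ), which glucocorticoids induce, was 3.32-fold lower in XX/Sry tubules and 2.35-fold lower in W/Wv tubules; it and Tat were the 2 of 14 that passed, while the list medians were 0.02 and -0.04. Of the 15 retinoic acid genes Dhrs3 and Stra8 were lower in tubules and 0 higher, of the 16 clock genes Per2 was lower, of the 22 coregulators Lcor was lower, and of the 9 estrogen genes Greb1 and Igfbp4 were lower. Per2, Lcor, Stra8 and Greb1 had tubule signals near or below the bound.

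Probe sets of 1 gene often disagreed. Among the 18 genes with more than 1, the sign of the log2 ratio differed between probe sets in 11 for XX/Sry over W/Wv in tubules and in 16 in whole testis, and in 8 for tubules over whole testis in each genotype. Each probe set reads another stretch of the transcript, and dim ones lie near background. Nr2f6 had a further probe set with 40.3 in XX/Sry and 167 in W/Wv tubules, and in whole testis 384 in XX/Sry and 195 in W/Wv.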

How the data were processed

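The receptors, gene lists and marker lists were chosen with earlier results of these data known. Per the submitters' processing notes the deposited values are MAS5 signals, an intensity that is linear and not logged; the labels' design text names Microarray Suite and the 2-fold rule in both preparations. After leaving out the lowest and highest 2% of probe sets the mean signal was 499.93 on each array, so the authors had scaled each one. Signals were used as deposited. The arrays hold 22690 probe sets, of which 64 are controls; of the other 22626, 20380 had 1 gene symbol in the platform annotation, 691 several and 1555 none, giving 12393 genes. A gene is represented by its probe set with the highest mean log2 signal.

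Folds are ratios of single arrays. A gene passed when both pairs differed at least 2-fold and in the same direction. Where the dimmer signal lay at or below the bound of its array, the fold is a lower limit, the brighter signal divided by the larger of both bounds, and none is given where the brighter lay at or below its own bound or that ratio did not exceed 1. The additive fit used limma 3.58.1 in R 4.3.3 on log2 signals (two-sided moderated test mean signal as trend, 9.98 prior degrees of freedom, p adjusted by Benjamini-Hochberg over all 22626 probe sets separately for the 2 comparisons), and was tested on simulated data. It takes the 4 arrays as independent; the sources used here do not state whether whole testis and tubules share animals, and p-values may measure technical spread. The number of arrays limits the precision.

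Every measured receptor was named. From each other list, genes passing in both pairs were named, at most 4 by size, and where a list's remaining genes are named beside them, all of them are. Medians, counts and sums of lists are descriptions without a test. Alternatives were median centring, quantile normalisation, an offset of 50 before log2, raising signals to the bound, the mean over probe sets, a 1.5-fold threshold, a filter on the bound and, for the fit, no trend.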

Additional observations from a re-analysis of the deposited data

Results flagged for a closer look

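Nr1h3 differed in opposite directions between groups. Its log2 ratio of XX/Sry over W/Wv was -4.10 in tubules and 1.71 in whole testis, and its log2 ratio of tubules over whole testis was -4.80 in XX/Sry and 1.01 in W/Wv. Each is a ratio of single arrays, and the difference was not tested. The Nr1h3 signals of 6.9 in XX/Sry tubules and 58.9 in W/Wv whole testis lay below the bounds of 61.0 and 76.3, so the sizes of these ratios are not measured.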

How the results depend on the processing

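No paired analysis by replicate number could be made, since each group had 1 array and no such number; the additive fit itself compares the genotypes within each preparation. No ratio of a named receptor that had passed changed direction under the alternatives. Of the values given for single receptors, 459 stayed on the same side of the threshold, 5 no longer passed and 4 newly passed. At a threshold of 1.5-fold, 2 receptors were higher in XX/Sry (Nr0b1, and Pgr, below the bound throughout) and 1 was lower (Esrrg), while 3 were higher in tubules (Nr0b1, Rxrg and Pparg, which lay below the bound throughout). The 2 receptors higher in tubules became 1 after quantile normalisation (Rxrg), 1 with signals raised to the bound (Nr0b1) and 0 with an offset of 50, which also made the 1 lower receptor (Ppara) 0. An offset shrinks ratios of dim signals by its construction. Over all genes, the counts higher and lower in XX/Sry were 245 and 399 as deposited, 298 and 311 after quantile normalisation, 66 and 43 with the offset, 95 and 60 with signals raised to the bound, 152 and 165 with the filter on the bound, and 624 and 925 at 1.5-fold. Higher and lower in tubules were 163 and 711 as deposited, 260 and 559 after median centring, 252 and 505 after quantile normalisation, 43 and 233 with the offset, 56 and 297 with signals raised to the bound, 86 and 397 with the filter, and 623 and 1501 at 1.5-fold. In the additive fit in limma 0 receptors passed in either comparison under any of the 4 alternatives; the lowest adjusted p ranged between 0.472 and 0.775 for genotype and between 0.0529 and 0.561 for preparation. Without the trend 0 probe sets passed in limma in either comparison, against 34 for genotype and 275 for preparation with it, and with quantile normalisation 76 and 351; at an unadjusted p under 0.05 without the trend, 0 receptors passed for genotype and 3 for preparation.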
